A study of Mus musculus with 10 samples.

Results

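The matrix metalloproteinases (Mmp genes), the ADAMTS proteases (Adamts genes) and the tissue inhibitors of metalloproteinases (Timp genes) were followed in epithelial cells sorted from the mouse mammary gland. Members were all genes with a probe set of exactly 1 symbol that reads Mmp, Adamts or Timp and a number, each taken from its brightest probe set. They were 44 of the 19935 genes with such a probe set, namely 22 Mmp, 18 Adamts and 4 Timp genes. Adamts2 and Mmp15 were not among these members. The cells came from 8-12-week-old virgin females, Pygo2 SSKO or control littermates housed together. Digested glands were depleted of cells stained for CD31, CD45 or TER119, the endothelial, blood and erythroid lineage markers, and then sorted. There were 3 SSKO basal arrays and 4 control basal arrays, both of the CD29-high, CD24-positive gate that holds mammary stem and basal cells, and 3 control luminal arrays of the CD29-low, CD24-positive, CD61-negative gate of mature luminal cells. The labels leave SSKO unexplained, Pygo2-null is the title's name for the mutant cells, and neither the promoter that deletes Pygo2 nor the strain is given in the sources used here. The sample titles number the arrays of each group as biological replicates. The number of animals behind each array is not given, so the p-values cover the spread among these arrays, which may be technical in part.

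Mmp and Adamts proteases are zinc-dependent enzymes that cut proteins of the extracellular matrix. Most are secreted, a few Mmp enzymes are anchored in the cell membrane, and nearly all are made as inactive precursors. Timp proteins bind the active site and block it, and the balance of enzyme and inhibitor is known to shape how mammary ducts branch and how the gland regresses after lactation.

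All levels are log2(intensity + 16) of 1 probe set, so levels are compared between arrays and not between genes, and every log2 difference or fold is on that scale, which understates changes of dim genes. Probe sets with a mean under 6.74 on this scale, the dimmest 25%, were not tested, and 38 of the 44 members passed, namely 17 Mmp, 17 Adamts and all 4 Timp genes. The 6 members under that level were Mmp1a, Mmp1b, Mmp8, Mmp13, Mmp21 and Adamts6, with means over all arrays of 4.99 to 6.55. A low signal does not show that a gene was silent. Just outside the limit were Mmp21 at 6.55 and Mmp13 at 6.52, and just inside it were Mmp20 at 6.76 and Mmp9 at 6.87. In all, 18 of the 38 members tested had a mean under 8, 10 of them Mmp genes.

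Basal and mature luminal markers went with the labels, but luminal progenitor markers were mostly higher in luminal arrays too. Summed intensities of 11 basal and myoepithelial markers were 2200 to 14235 in control luminal arrays, 79133 to 86361 in SSKO basal arrays and 78721 to 83912 in control basal arrays. The luminal array with the high value was array 3. Those of 10 mature luminal markers were 107232 to 111112 in control luminal, 25611 to 29674 in SSKO basal and 16449 to 22638 in control basal arrays. Those of 6 luminal progenitor markers were 8936 to 13449 in control luminal, 1801 to 2804 in SSKO basal and 2429 to 3890 in control basal arrays. Of these 6, 5 were higher in control luminal than in control basal cells and 1, Itgb3, was lower. The markers thus do not show that the luminal arrays held mature cells alone. Pygo2 was 6.99, 5.94 and 5.86 in SSKO basal arrays, against 8.30, 9.09, 8.11 and 8.91 in control basal arrays. Whether its probe set lies in the deleted part was not determined here.. Control basal array 3 had the highest fibroblast marker sum and SSKO basal array 1 the highest endothelial marker sum of the 10 arrays.

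Comparing control luminal with control basal cells asked how the proteases and their inhibitors divide between the compartments. In luminal cells 20 of the 38 members tested fell and none rose, at an adjusted p under 0.05 with limma. Over all 15815 genes tested, 44.3% were called, 19.7% falling and 24.6% rising. The members that fell were 6 Mmp, 12 Adamts and 2 Timp genes, and all 20 had every basal array, control or SSKO, above every luminal array. Being called lower largely fixes that order, which 19.0% of all genes tested had. Control luminal and control basal arrays did not overlap for 22 of the 38 members tested, the 20 that fell with Timp4 and Adamts3, beside 46.3% of all genes tested. The median log2 difference was -0.65 over the 38 members and 0.07 over all genes tested. The log2 differences of these 20 members ran from -5.02 for Mmp2 to -0.39 for Adamts14. The 18 other members had differences of -0.79 to 0.56, with 10 below 0 and 8 above. With no filter on dim probe sets, 20 of 44 members fell and none rose. In bulk samples such as these, fewer cells of a type and less RNA per cell cannot be told apart.

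**Figure D1:**
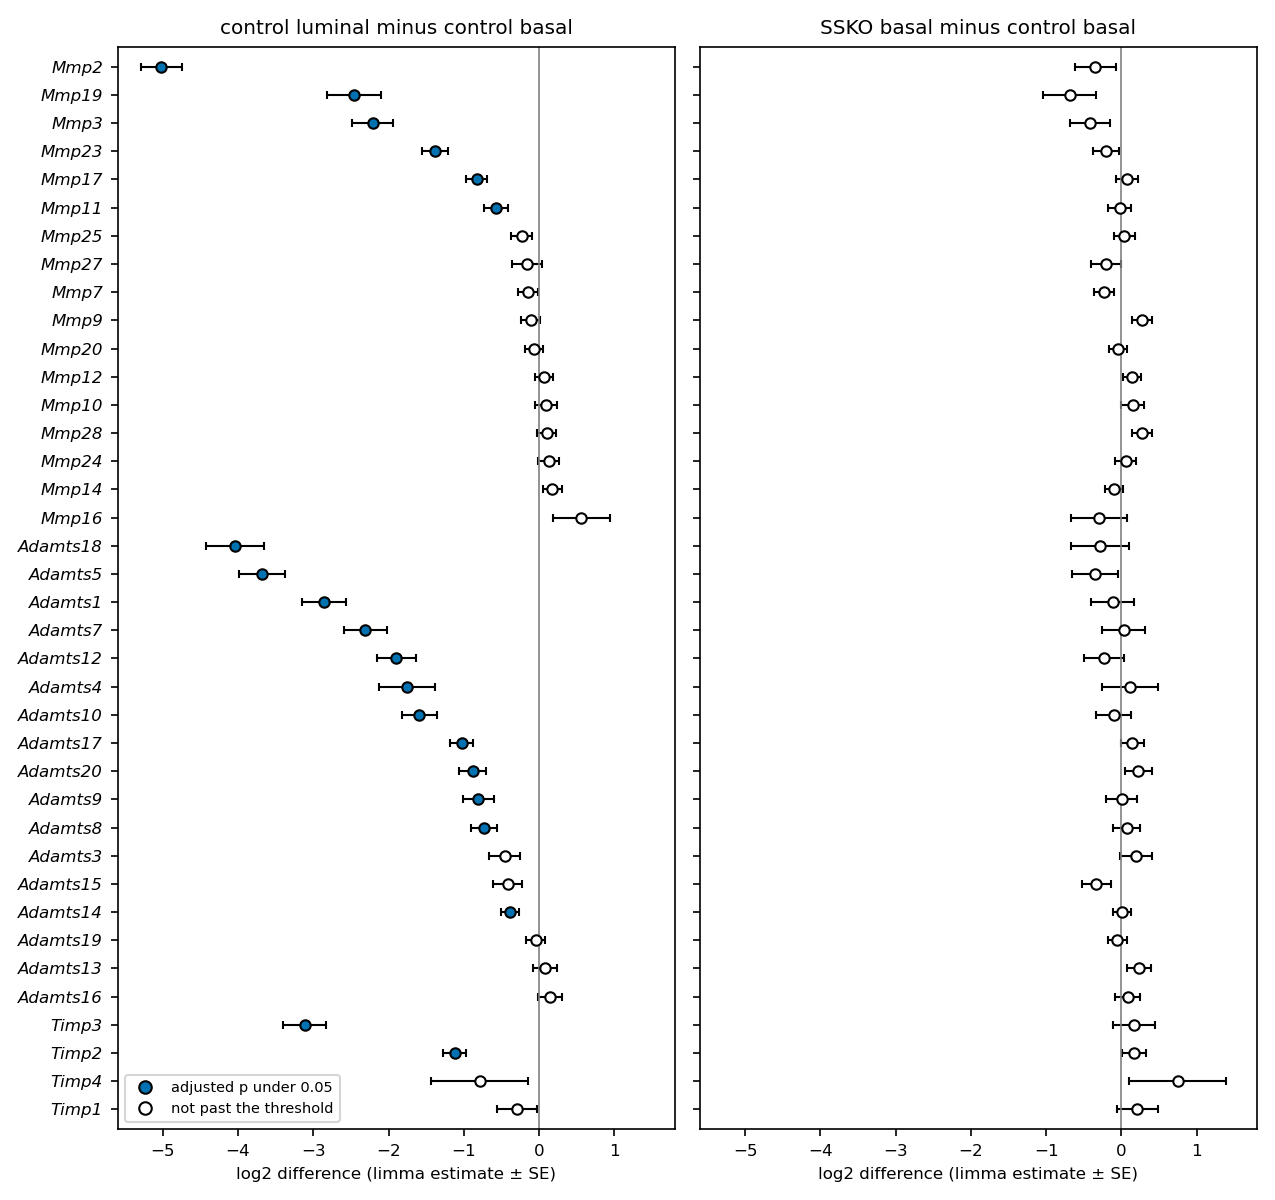
Log2 difference of each of the 38 members tested (x axis, limma estimate ± SE), with control luminal minus control basal on the left and SSKO basal minus control basal on the right; filled points passed an adjusted p of 0.05. The 20 filled points all lie left of 0 in the luminal panel, and no point is filled in the SSKO panel; both panels share the 4 control basal arrays.

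Among the inhibitors, Timp3 and Timp2 were lower in luminal cells. Timp3 encodes the inhibitor that binds to the matrix and acts on Adam and Adamts enzymes as well as on Mmp enzymes. Its level was 9.80, 8.95 and 10.54 in control luminal arrays, 12.98, 13.05 and 13.11 in SSKO basal arrays, and 12.73, 12.97, 13.01 and 12.82 in control basal arrays. The basal arrays lay within a narrow band, and luminal array 3, the one brightest for basal markers, was the highest of the luminal arrays. Timp3 fell by 3.12 in luminal cells (SE 0.28, limma adjusted p = 4.98e-06), and was 8.67-fold higher in control basal cells. Timp2, which besides inhibiting Mmp enzymes helps Mmp14 to activate the Mmp2 precursor, was 11.07, 10.53 and 11.19 in control luminal arrays, 12.09, 12.23 and 12.34 in SSKO basal arrays, and 11.97, 12.15, 12.07 and 12.01 in control basal arrays. It fell by 1.12 (SE 0.16, limma adjusted p = 1.47e-04), with luminal and basal arrays apart.

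Timp1 and Timp4 did not pass. Timp1, a secreted inhibitor that many stimuli induce, was 10.02, 9.12 and 8.98 in control luminal arrays, 9.81, 10.24 and 9.60 in SSKO basal arrays, and 9.58, 9.70, 9.31 and 10.10 in control basal arrays. The 3 groups overlapped, and the luminal difference was -0.30 (SE 0.27, limma adjusted p = 0.423). Timp4 was 7.68, 7.74 and 7.75 in control luminal arrays, 10.95, 8.06 and 8.76 in SSKO basal arrays, and 10.05, 7.91, 7.93 and 8.17 in control basal arrays. The luminal arrays were alike and below all basal arrays, whereas the basal arrays spread widely within each genotype. The luminal difference of Timp4 was -0.79 (SE 0.65, limma adjusted p = 0.377), and -0.28 without control basal array 1.

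**Figure D2:**
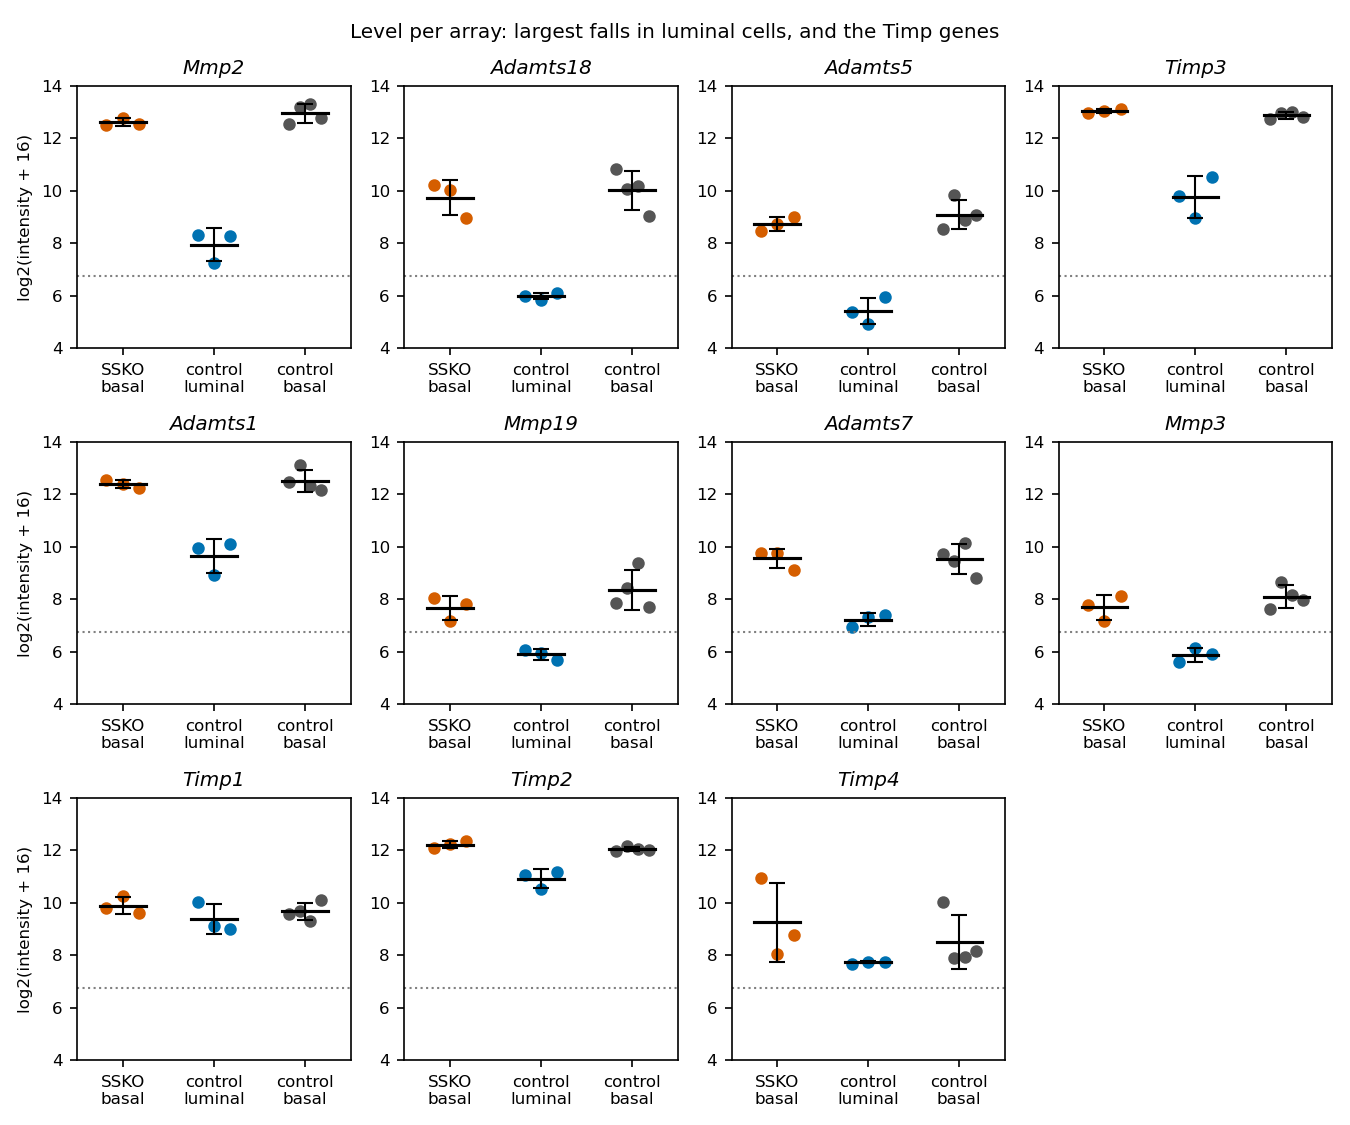
Level per array, log2(intensity + 16) on the y axis, of the 8 members with the largest falls in luminal cells and of the other Timp genes; points are arrays, bars are the mean ± SD (n = 3, 3 and 4), and the dotted line is the level of 6.74 under which probe sets were dropped. Luminal arrays lie below both basal groups for the 8 members and for Timp2 and Timp4, with Timp1 overlapping; SSKO and control basal arrays overlap in every panel.

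Of the secreted Mmp genes, Mmp2, Mmp19, Mmp3 and Mmp11 were lower in luminal cells. Mmp2 encodes gelatinase A, which cuts basement membrane collagen and denatured collagens. Its level was 8.33, 7.24 and 8.27 in control luminal arrays, 12.51, 12.79 and 12.55 in SSKO basal arrays, and 12.57, 13.20, 13.32 and 12.77 in control basal arrays. Mmp2 fell by 5.02 in luminal cells (SE 0.27, limma adjusted p = 9.24e-08), or 32.4-fold, the largest fall among the members. Mmp3 encodes a stromelysin, an enzyme of broad matrix specificity that also activates other Mmp precursors. Its level was 5.61, 6.14 and 5.91 in control luminal arrays, 7.77, 7.16 and 8.13 in SSKO basal arrays, and 7.62, 8.65, 8.17 and 7.96 in control basal arrays. Every luminal value of Mmp3 was under the dim limit, so its difference of -2.21 (SE 0.27, limma adjusted p = 4.91e-05) may not be its full size.

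Mmp19, a secreted enzyme that cuts basement membrane proteins, was 6.06, 5.96 and 5.67 in control luminal arrays, 8.03, 7.16 and 7.80 in SSKO basal arrays, and 7.87, 8.44, 9.40 and 7.72 in control basal arrays. It fell by 2.46 (SE 0.36, limma adjusted p = 1.87e-04), again to luminal values under the dim limit. Control basal array 3 stood highest, and without it the difference was -2.11 (adjusted p = 9.91e-05). Mmp11, a stromelysin that is activated inside the cell by furin-type enzymes, fell by 0.58 (SE 0.16, limma adjusted p = 0.0115), to 7.91 ± 0.04 (SD, n = 3) in control luminal cells, against 8.49 ± 0.27 (SD, n = 4) in control basal cells.

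Of the membrane-bound Mmp genes among the members, Mmp17 and Mmp23 fell, and Mmp14, Mmp16, Mmp24 and Mmp25 did not pass. Mmp17, anchored by a glycolipid tail, fell by 0.83 (SE 0.14, limma adjusted p = 5.61e-04), to 8.21 ± 0.24 in control luminal cells, against 9.03 ± 0.15 in control basal cells (SD, n = 3 and 4). Mmp23, held by an N-terminal membrane anchor, fell by 1.38 (SE 0.17, limma adjusted p = 6.80e-05). Mmp14, the membrane enzyme that activates the Mmp2 precursor, was 11.41, 11.35 and 11.28 in control luminal arrays, 10.98, 11.10 and 11.12 in SSKO basal arrays, and 10.96, 11.18, 11.40 and 11.13 in control basal arrays. Luminal and control basal arrays overlapped, while all luminal arrays lay above the SSKO basal arrays. The difference from control basal cells was 0.18 (SE 0.12, limma adjusted p = 0.288), so Mmp2 and Timp2 were lower in luminal cells while no difference was detected for Mmp14, a gene chosen for its values by array after they were seen. Mmp16, a transmembrane enzyme, was 9.55, 9.40 and 7.84 in control luminal arrays, against 8.17, 8.27, 9.05 and 7.99 in control basal arrays, and was likewise chosen after its values were seen. Its difference of 0.56 (SE 0.37) did not pass (limma adjusted p = 0.265), but without luminal array 3 it was 1.11 (adjusted p = 0.00497), and it passed with array weights too (0.89, adjusted p = 0.0385). The differences of Mmp24, a transmembrane enzyme, and Mmp25, with a glycolipid anchor, were 0.13 and -0.23, and neither passed.

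In the mouse genome 10 of the 22 Mmp members stand side by side on chromosome 9, in the order Mmp13, Mmp12, Mmp1b, Mmp3, Mmp1a, Mmp10, Mmp8, Mmp27, Mmp20 and Mmp7, with no other protein-coding gene of the RefSeq table between them. They include collagenases (Mmp1a, Mmp1b, Mmp8, Mmp13), stromelysins (Mmp3, Mmp10), matrilysin (Mmp7), macrophage elastase (Mmp12) and enamelysin (Mmp20). Of these 10 genes, 4 were under the dim limit and 6 were tested, and Mmp3 alone fell in luminal cells. The mean levels over all arrays lay between 4.99 and 7.46. The luminal differences of the other 5 genes tested were 0.06 for Mmp12, 0.09 for Mmp10, -0.16 for Mmp27, -0.07 for Mmp20 and -0.15 for Mmp7, none past the test.

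Promoter sequence was examined for the cluster because some of its genes are textbook targets of AP-1, a transcription factor induced by growth signals and stress. RefSeq promoter windows (GRCm38.p6, 250 bases before to 50 after the gene's start) were matched for 30 members with 33 windows. The AP-1 motif TGAGTCA, searched on both strands, was in the windows of 7 members, all from the cluster, and in 5.2% of all 32851 windows. Each is shown 5′ to 3′ on the strand of the gene with up to 25 bases on either side and the motif in capitals, since the same letters stand before Mmp3, which fell, and before genes that were dim or did not pass.
Mmp3, chr9:7445751-7445807, plus strand: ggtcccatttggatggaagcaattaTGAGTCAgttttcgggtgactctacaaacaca
Mmp10, chr9:7502254-7502310, plus strand: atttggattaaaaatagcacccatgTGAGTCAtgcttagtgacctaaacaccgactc
Mmp12, chr9:7347305-7347361, plus strand: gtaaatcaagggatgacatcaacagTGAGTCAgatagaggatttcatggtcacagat
Mmp7, chr9:7692002-7692058, plus strand: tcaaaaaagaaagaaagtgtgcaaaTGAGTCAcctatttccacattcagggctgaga
Mmp1a, chr9:7464043-7464099, plus strand: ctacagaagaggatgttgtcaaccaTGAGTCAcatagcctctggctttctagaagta
Mmp1b, chr9:7388088-7388144, minus strand: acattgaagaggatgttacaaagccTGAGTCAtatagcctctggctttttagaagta
Mmp13, chr9:7272454-7272510, plus strand, motif on the other strand: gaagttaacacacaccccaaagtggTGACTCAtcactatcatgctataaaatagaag

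Counted from the gene's start, the motif began at base -46 for Mmp3, -63 for Mmp10 and Mmp7, -44 for Mmp12, -73 for Mmp1a, -93 for Mmp1b and -35 for Mmp13. Mmp3 was thus the only member that fell in luminal cells whose window held the motif, among 12 such members with a window. The GC box GGGCGG, searched on both strands, was in 9 of the 13 windows of members that fell, in 7 of the 20 windows of the other members and in 35.7% of all windows. The TATA box TATAAA was in 2 of 13, 9 of 20 and 13.6%. The other members here include genes too dim to be tested, such as Mmp1a, Mmp1b, Mmp8, Mmp13 and Mmp21. Those of them with the TATA box were Mmp21 and genes of the chromosome 9 cluster. These matches describe letters in a window and are not binding sites.

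Adamts genes made up most of the members that fell, with 12 of 17 tested, beside 19.7% of all genes tested that fell. The proteoglycan-cutting enzymes Adamts1, Adamts4, Adamts5, Adamts8, Adamts9 and Adamts20 all fell, and Adamts15, of the same kind, did not pass (-0.42, SE 0.19, limma adjusted p = 0.106). Without luminal array 3, Adamts15 differed by -0.58 and passed (adjusted p = 0.0371), as it did with array weights (-0.49, adjusted p = 0.0438). Adamts1 was 9.97, 8.91 and 10.09 in control luminal arrays, 12.54, 12.41 and 12.24 in SSKO basal arrays, and 12.46, 13.11, 12.34 and 12.16 in control basal arrays, a luminal difference of -2.86 (SE 0.29, limma adjusted p = 1.18e-05). Adamts5, an aggrecan- and versican-cutting enzyme, was 5.38, 4.91 and 5.93 in control luminal arrays, 8.48, 8.72 and 9.01 in SSKO basal arrays, and 8.55, 9.84, 8.89 and 9.06 in control basal arrays. Its luminal values were all dim, so its difference of -3.68 (SE 0.30, limma adjusted p = 2.43e-06) may not be its full size. Adamts4, the other main aggrecanase, fell by 1.75 (SE 0.37), Adamts20 by 0.88 (SE 0.18), Adamts9 by 0.81 (SE 0.21) and Adamts8 by 0.73 (SE 0.18), with limma adjusted p from 0.00169 to 0.00730.

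Adamts18, a secreted protease known from the myoepithelium of the mouse mammary gland, was 5.84 to 6.11 in the 3 control luminal arrays, 10.24, 10.01 and 8.97 in SSKO basal arrays, and 10.82, 10.06, 10.20 and 9.03 in control basal arrays. All luminal arrays were dim and alike, and SSKO array 3 and control array 4 were the lowest basal arrays. Adamts18 fell by 4.04 in luminal cells (SE 0.39, limma adjusted p = 7.56e-06), which may not be its full size. Adamts7, a protease of cartilage and vessel wall matrix, was 6.95, 7.32 and 7.40 in control luminal arrays, 9.78, 9.77 and 9.13 in SSKO basal arrays, and 9.73, 9.44, 10.16 and 8.79 in control basal arrays. It fell by 2.31 (SE 0.29, limma adjusted p = 5.96e-05), and Adamts12, the most closely related protease, by 1.90 (SE 0.26, limma adjusted p = 1.34e-04).

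Adamts10 and Adamts17, which in humans are tied to fibrillin microfibrils through inherited short stature syndromes, fell by 1.59 (SE 0.23) and 1.03 (SE 0.15). Of the procollagen N-propeptidases among the members, Adamts14 fell by 0.39 (SE 0.12, limma adjusted p = 0.0182), the smallest fall called, and Adamts3 did not pass (-0.46, SE 0.21, limma adjusted p = 0.102). The Adamts14 call ended without luminal array 1 or 3 or without the 3 basal arrays brightest for endothelial markers, with adjusted p up to 0.0716. Adamts13, which cuts von Willebrand factor, Adamts16 and Adamts19 had differences of 0.08, 0.14 and -0.04 and did not pass.

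Only Adamts3, Adamts9 and Adamts17 had several probe sets. The 16 probe sets of Adamts3 differed between luminal and basal cells by -0.66 to -0.285 and the 6 of Adamts9 by -0.94 to -0.50. The 5 of Adamts17 spread from -4.06 to -0.45, all below 0, and the brightest, used for the gene, gave -1.03. Averaged over all its probe sets, Adamts17 differed by -1.85 and all 3 genes kept their side of the threshold.

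**Figure D3:**
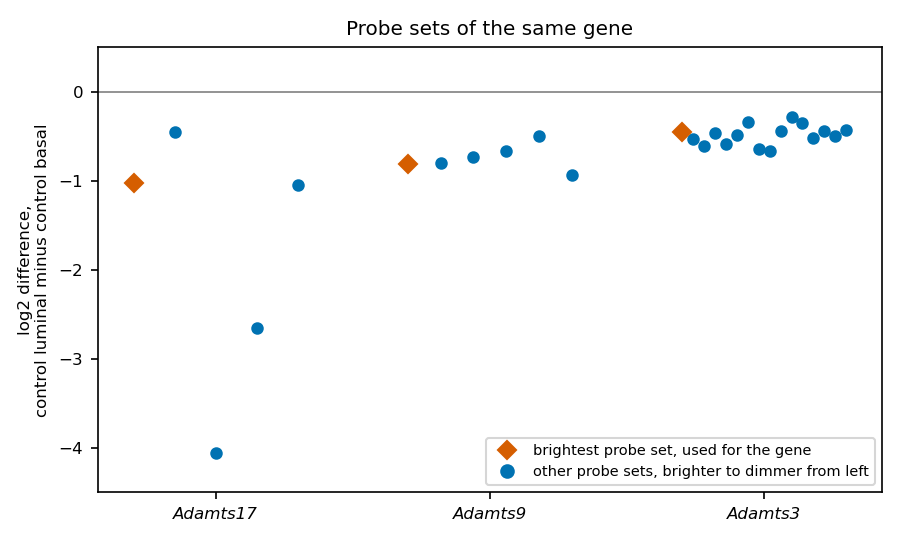
Log2 difference, control luminal minus control basal (y axis), for each probe set of the 3 members with more than 1; diamonds mark the brightest probe set, which stands for the gene. All probe sets lie below 0, and those of Adamts17 range from -4.06 to -0.45.

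Fibroblasts make many of these proteases, so their markers were set beside the luminal result. Of 11 fibroblast markers tested, 10 were lower in luminal cells and 1 (Col6a3) was higher, and Fap was under the dim limit. The summed intensity of all 12 was 2368 to 7945 in control luminal arrays, 12804 to 18625 in SSKO basal arrays and 15098 to 30282 in control basal arrays. None of these markers was at 0. Decorin (Dcn), a matrix proteoglycan, was 12.46, 11.43 and 9.03 in control luminal arrays, against 12.95, 12.68, 13.11 and 12.62 in control basal arrays. The collagen gene Col1a2 was 7.83, 7.48 and 7.30 in control luminal arrays, against 10.46, 11.18, 12.50 and 10.59 in control basal arrays. Of the 20 members that fell, Mmp2, Mmp19, Adamts7 and Adamts12 were brightest, among the 7 basal arrays, in control array 3, the one with the highest fibroblast sum, where 13.1% of all genes tested were brightest. Control array 2, with a fibroblast sum of 16016, was brightest for 7 of the 20, control array 1 for 4, SSKO array 3 for 3 and control array 4 for 2. Basal markers moved the same way, with 11 of 11 lower in luminal cells. Of 8 pericyte markers tested, 5 were lower and 1 was higher, beside 19.7% and 24.6% of all genes tested. The part of any of these cell types in the falls was not tested. Without control array 3 the count was again 20 lower and 0 higher. That fit does not test the fibroblast part, since its basal arrays still had fibroblast sums of 12804 or more, against at most 7945 in luminal arrays.

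Comparing SSKO with control basal cells asked whether loss of Pygo2 alters these genes. No member was called with limma, and none of the 38 had an unadjusted p under 0.05, where 0.0379% and 3.03% of all genes tested passed these limits. Differences ran from -0.69 for Mmp19 to 0.75 for Timp4, with 21 above 0 and 17 below 0, a median of 0.02 against 0.01 over all genes tested, and 36 of 38 smaller than 0.5 either way. The 95% interval of the difference lay within 1 of 0 for 32 members, so a change of 2-fold or more lay outside the interval. The other 6, with wider intervals, were Timp4, Mmp19, Mmp16, Mmp3, Adamts5 and Adamts18. Among the members tested, the narrowest interval was that of Adamts14, -0.25 to 0.26.

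For the members with the largest luminal falls, SSKO and control basal levels overlapped. Mmp2 averaged 12.62 ± 0.15 in SSKO and 12.96 ± 0.36 in control basal cells, a difference of -0.35 (95% interval -0.94 to 0.25). Timp3 averaged 13.05 ± 0.06 in SSKO and 12.88 ± 0.13 in control basal cells (0.17, interval -0.45 to 0.79). Adamts18 averaged 9.74 ± 0.68 in SSKO and 10.03 ± 0.74 in control basal cells (-0.29, interval -1.14 to 0.56). All values are the mean ± SD of 3 SSKO and 4 control arrays, and none of these differences passed (limma adjusted p = 1.00).

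The 4 members of smallest p were Mmp28, Mmp9, Mmp19 and Adamts15. Mmp28, or epilysin, was 7.83, 7.78 and 7.76 in SSKO basal arrays, against 7.32, 7.63, 7.56 and 7.55 in control basal arrays. Among the 38 members tested it was the only one whose basal groups did not overlap, with SSKO higher, beside 4.46% of all genes tested that did not overlap (2.45% with SSKO higher and 2.02% with SSKO lower). Its difference was 0.27 (SE 0.13, limma adjusted p = 1.00). Mmp21, a secreted enzyme too dim to be tested, was chosen after its values were seen. Its basal groups did not overlap either, at 6.77, 6.78 and 6.96 in SSKO basal arrays, against 6.25, 6.52, 6.34 and 6.23 in control basal arrays. The shares above cover tested genes only, so none stands beside Mmp21. Mmp9, gelatinase B, was 7.12, 6.84 and 7.33 in SSKO basal arrays, against 6.78, 6.93, 6.81 and 6.79 in control basal arrays, close to the dim limit throughout. Its difference was 0.27 (SE 0.13, limma adjusted p = 1.00). SSKO arrays 1 and 3, the higher ones for Mmp9, were bright for endothelial markers, as was control array 1, at 6.78 for Mmp9. The part of endothelial cells in the Mmp9 level was not tested. Without SSKO arrays 1 and 3 and control array 1 the difference of Mmp9 was -8e-04, which rests on SSKO array 2 alone.

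Mmp19 had the lowest difference, -0.69 (SE 0.36, limma adjusted p = 1.00). Without control array 3, the array with the most fibroblast signal, it was -0.34, and without the 3 arrays bright for endothelial markers it was -1.35, a value that rests on SSKO array 2 alone. Adamts15 was 7.48, 7.05 and 7.21 in SSKO basal arrays, against 7.40, 7.89, 7.74 and 7.29 in control basal arrays, and the groups overlapped. Its difference was -0.34 (SE 0.19), which did not pass (limma adjusted p = 1.00).

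The basal arrays high for Timp4 were those with the highest endothelial and adipocyte marker sums. Timp4 was highest in SSKO array 1 and control array 1 and next in SSKO array 3, at 10.95, 10.05 and 8.76, and 7.91 to 8.17 in the other 4 basal arrays. The summed intensity of 12 endothelial markers was 27472 in SSKO array 1, 15368 in SSKO array 3 and 13810 in control array 1, and 4493 to 6532 in the other basal arrays and 4187 to 5454 in luminal arrays. All 12 were above the dim limit. Vwf did not follow, at 7.45 in SSKO arrays 2 and 3 alike and 9.31 to 9.76 in luminal arrays. Among basal arrays the other endothelial markers were highest in the same 3 arrays. The summed intensity of 6 adipocyte markers was 4378, 2758 and 2809 in the same 3 arrays and 1314 to 1978 in the other basal arrays. Of these 6, Fabp4 was 11.68, 10.52 and 11.00 in the same arrays and 9.12 to 9.85 in the other basal arrays. The rest did not all follow, as Plin1 and Lep, at 7.69 and 6.50, were lowest of all basal arrays in control array 1. Among basal arrays the pericyte markers Rgs5, Des, Kcnj8 and Abcc9 were also highest in the 3 arrays highest for Timp4, whereas Pdgfrb, Cspg4, Notch3 and Anpep were not. The part of any of these cell types in the Timp4 level was not tested. The SSKO difference of Timp4 was 0.75 (95% interval -0.68 to 2.17). It was -0.10 without SSKO array 1, 1.34 without SSKO array 2, 1.26 without control array 1 and 0.06 without the 3 bright arrays, none past the test, and the last fit leaves 1 SSKO array that is assumed to vary like the others.

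**Figure D4:**
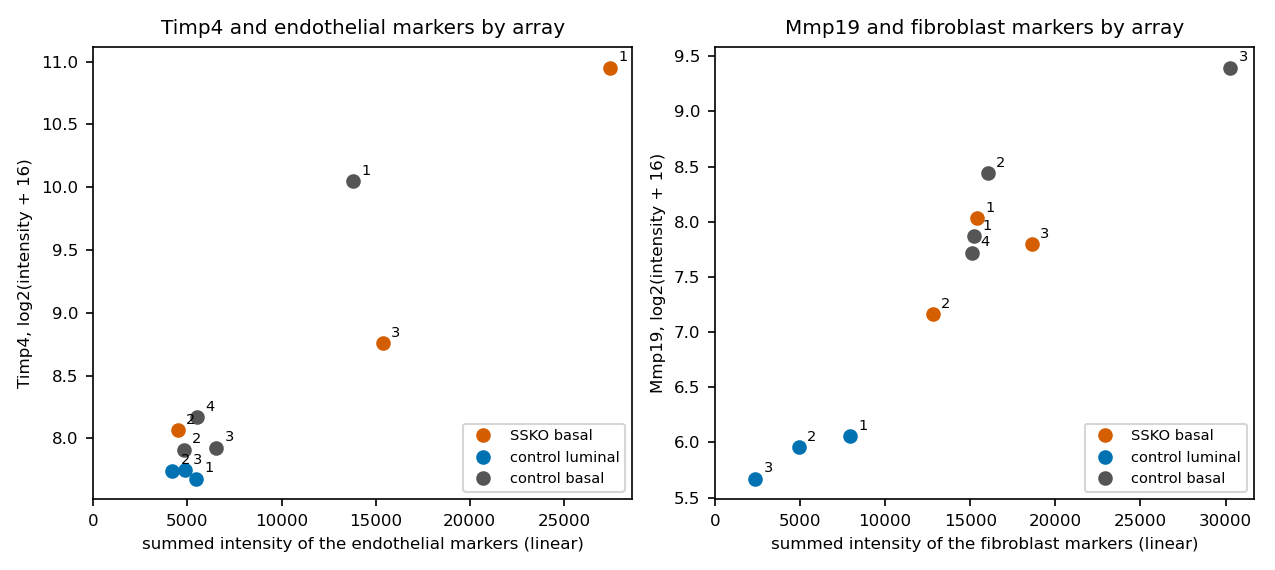
Level of Timp4 against the summed intensity of 12 endothelial markers (left) and of Mmp19 against that of 12 fibroblast markers (right), 1 point per array with its replicate number; y axes are log2(intensity + 16) and x axes linear intensity. The 3 basal arrays with endothelial sums of 13810 or more have the 3 highest Timp4 levels, and control basal array 3 is highest for Mmp19 and for fibroblast markers.

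Genes that activate, restrain or resemble these proteases were taken from 4 lists, whose counts stand beside 24.6% of all genes tested that rose in luminal cells and 19.7% that fell. Of 16 tested genes of activation and inhibition, 8 fell and 2 rose in luminal cells. The 4 of smallest p had limma adjusted p-values of 1.51e-08 to 5.34e-07. The log2 difference was -4.38 (SE 0.18) for Pcsk5, a proprotein convertase, and -3.45 (SE 0.15) for Plat, the tissue plasminogen activator. It was -3.01 (SE 0.20) for Lrp1, an endocytic receptor that clears proteases, and -2.77 (SE 0.18) for Reck, a membrane-anchored inhibitor of several Mmp enzymes. Of 10 Adam proteases tested, which are membrane-bound relatives that shed cell surface proteins, 5 rose and 4 fell. Adam10, a sheddase of Notch receptors, rose by 2.33 (SE 0.17) and Adam17, which releases tumour necrosis factor and EGF receptor ligands, rose by 0.74 (SE 0.14), whereas Adam22, which lacks catalytic activity, fell by 1.32 (SE 0.18) and Adam12 fell by 1.93 (SE 0.29).

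Of 7 tested genes for ADAMTS-like proteins and papilin, which have the Adamts ancillary domains without the protease, 3 fell and 1 rose. Adamtsl3 fell by 2.76 (SE 0.26), Adamtsl1 by 0.57 (SE 0.16) and Adamtsl4 by 0.55 (SE 0.19), and Thsd4, a microfibril-associated member, rose by 4.21 (SE 0.25). Both astacin proteases tested fell, Bmp1, the procollagen C-propeptidase, by 0.82 (SE 0.14) and Tll1 by 0.47 (SE 0.17). Median luminal differences were -1.09 for activation and inhibition, 0.29 for Adam, -0.27 for ADAMTS-like and -0.64 for astacin genes, beside 0.07 over all genes tested. In SSKO basal cells no gene of the 4 lists was called by limma, and 1 of the 35 tested, Thsd4, had an unadjusted p under 0.05 (difference 0.61, SE 0.25, limma adjusted p = 1.00).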

How the data were processed

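Total RNA from sorted cells was measured on 10 Affymetrix arrays. The deposited table holds 1 linear intensity per probe set and array for 28815 probe sets, with array medians of 205 to 228. Per the submitters' processing notes, the tools were PLIER 2.0 and Affymetrix Expression Console 1.1, with no steps named. Normalization between arrays and a genome build are not given in the sources used here. Symbols came from the supplied platform annotation, updated through gene identifiers: 21780 probe sets had 1 symbol, 1605 several and 5430 none, and 21689 of the single symbols matched the RefSeq table.

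The intensities were used as deposited, as log2(intensity + 16). The dimmest 25% of probe sets by mean were dropped and each gene was taken from its brightest probe set, which left 15815 genes. A model with 3 group means over all 10 arrays was fitted with limma 3.58.1 (lmFit, eBayes) in R 4.3.3, two-sided, with Benjamini-Hochberg adjustment over all genes tested, and steps were tested on simulated data. No detection calls or batch labels were used. The luminal and SSKO comparisons share the 4 control basal arrays.

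Named with every array were the Timp genes, the 8 largest falls past the threshold (no member rose) and the 4 members of smallest p in the SSKO comparison. From each pathway list up to 4 called members of smallest p were named. Others named with every array are said to be chosen after their values were seen. The members, lists and alternatives were chosen with earlier results of these data known. Figures used matplotlib 3.10.9 in Python 3.11.15. Spearman correlations between arrays were 0.932 to 0.980 among basal, 0.957 to 0.975 among luminal and 0.702 to 0.809 between luminal and basal arrays.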

Additional observations from a re-analysis of the deposited data

Results flagged for a closer look

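Timp4 was singled out because 1 of the 4 control basal arrays lay far from the others. Its level was 10.05 in control array 1, against 7.91, 7.93 and 8.17 in control arrays 2, 3 and 4, a gap of 0.88 of the group's whole range, above Dixon's 95% critical value for 4 samples. No other of the 38 members tested in this way passed that limit, where chance alone passes about 1 in 20. Control array 1 also had the highest endothelial marker sum of the control basal arrays, 13810 against 4800 to 6532. It had the highest adipocyte and immune marker sums of these arrays too, 2809 against 1314 to 1978 and 3119 against 1935 to 2504. In these sums Fabp4 was 11.00 in control array 1 against 9.14 to 9.85, and Cd74 was 10.39 against 8.28 to 8.86. Other markers were mixed, with Lyz2 and Laptm5 highest there but Plin1 (7.69 against 7.74 to 7.92) and Cd3e (7.68 against 7.83 to 8.32) lowest. The part of these signals in the Timp4 level was not tested.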

How the results depend on the processing

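In the luminal comparison the count of members called was 20, all lower, as reported. It was 14 of 20 tested members when the lowest 50% of probe sets were dropped and 19 to 22 in every other alternative run, with 19 to 21 when 1 array was left out. A higher call appeared in 2 fits only, for Mmp16 (array weights, and without control luminal array 3). In the SSKO comparison the count of members called by limma was 0 in every alternative run, with 0 to 3 at an unadjusted p under 0.05. The count of all genes called in that comparison, 6, was 3 after quantile normalization, 1 to 27 when 1 array was left out, namely 1 without SSKO array 3, 2 without control array 2 and 27 without SSKO array 2, and 0 (214 at an unadjusted p under 0.05) without the 3 basal arrays brightest for endothelial markers; the cause was not tested. Same-numbered SSKO and control basal arrays had deviations correlated at 0.63, 0.46 and 0.05, and SSKO array 3 correlated best with control array 4 (0.43), so the numbers were not taken to pair the arrays. With the replicate number as a block, which gives control array 4 a term of its own and so takes it out of the comparison, 20 members were called in luminal cells and 0 in SSKO basal cells, with 6962 and 5 genes in all. No member changed sign under a call. Without detection calls, signal over background could not be judged, and the few arrays limit precision.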
